A study of Rattus norvegicus with 48 samples.

Results

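A group of 35 genes differed from rat to rat in nearly the same way in the subcutaneous and the visceral fat of the same animal. They were chosen from a table of 23481 genes, of which 13387 reached at least 2 CPM (counts divided by the total of their library and scaled to a common total) in some library of each depot. For each of these eligible genes the log2 of CPM plus 0.5 was taken, the mean of its group of 6 libraries was subtracted, and the deviations left over were compared between the depots of the 24 rats. Members are the genes whose Pearson correlation (r) of these deviations was over 0.8, and they are numbered 1 to 35 by falling r. The values that chose the members are therefore r, the deviations within groups and the highest CPM in each depot. Both r and the deviations are given here as description with no test.

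The rats were male and adolescent, and their fat was collected on postnatal day 61, with 24 h since the last session of exercise. RNA from subcutaneous (SAT) and visceral (VAT) adipose tissue was sequenced from 4 groups of 6 rats. Early control rats were sedentary and belonged to the early active phase, at zeitgeber time (hours after lights on) 13, and early exercise rats had been exercised at that phase. Late control and late exercise rats were their counterparts at zeitgeber time 23. Both are in the dark part of the day, when rats are active. The sources used here give no strain, litter or kind of exercise, and no group carried an added allele or agent in the labels. Libraries of the depots were paired by the replicate letter of their names, and a shared letter is taken to mean the same rat, which the labels do not state in so many words. The replicates of a group are separate rats, and the early and late rats are different animals, so phase cannot be told apart from anything else that differed between those animals.

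As background, SAT lies under the skin and VAT around the abdominal organs, and the depots differ in blood supply and in metabolic activity. Both depots of an animal share its genome and its circulating hormones and nutrients. A gene that is high in every tissue of some animals and low in every tissue of others is a familiar sight in studies of expression across outbred animals, and is often described as switched on or off where the low level is near 0. What set the levels in these rats was not tested.

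The genes carry Ensembl IDs that the files do not pair with symbols, so gene classes, the defining markers of fat and of other cell types, and sequences were not analysed here. Only the 4 members with the highest r are given by ID: ENSRNOG00000019050 (member 1), ENSRNOG00000055020 (member 2), ENSRNOG00000030704 (member 3) and ENSRNOG00000029262 (member 4). In bulk tissue, fewer cells of a type and less RNA per cell cannot be told apart.

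Library totals ran from 13163675 to 17890033 estimated counts, with a median of 15576425. A gene with 0 counts could stand at up to 0.228 CPM in the smallest library (3 counts, counting error only). In 4 rats 1 library stood apart from the other libraries of its depot by rank correlation. These were late exercise replicates 4 and 6 in SAT (median Spearman correlation 0.819 and 0.822, against 0.952 to 0.977 in the other 22 libraries) and early exercise replicate 3 and early control replicate 5 in VAT (0.937 and 0.948, against 0.975 to 0.983). Their other depot did not stand apart. Without these 4 rats the rule selected 115 genes, among them 29 of the 35 members.

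Across the 13387 eligible genes the depots of a rat were only loosely alike. The median r was 0.149, with quartiles of 0.00402 and 0.288, and the range ran from -0.681 to 0.995. In all, 698 genes had r over 0.5, 116 over 0.7, 35 over 0.8 (0.261% of the eligible genes) and 9 over 0.9, while 18 lay below -0.5 and 0 below -0.7. The threshold fell on a continuous slope, with the last member at 0.8013 and the next gene at 0.7993, and with 31 genes between 0.75 and 0.8 against 15 between 0.8 and 0.85. Members 1 to 6 stood furthest out, with r of 0.964 or more.

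**Figure D1:**
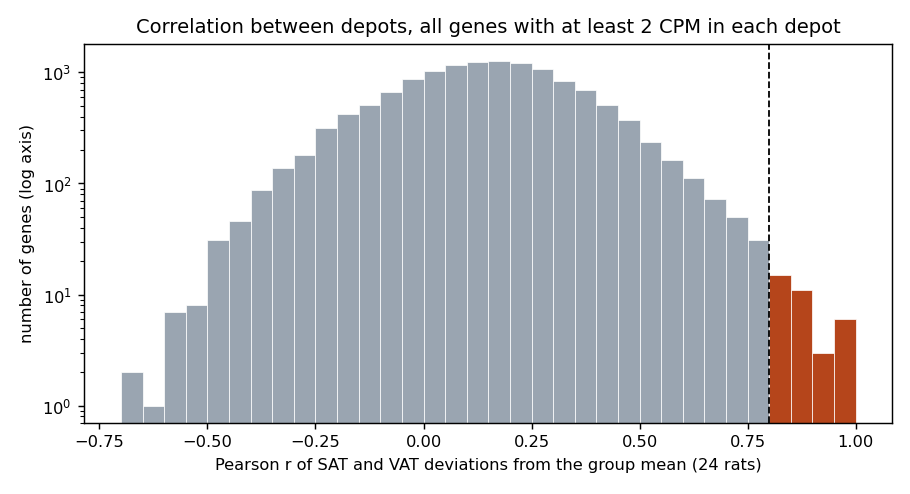
Number of eligible genes (log axis) by the Pearson r between SAT and VAT of their deviations from the group mean over 24 rats, in steps of 0.05. The 35 members, to the right of the dashed line at 0.8, form the upper tail of a distribution centred on 0.149.

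Members were not more abundant than other eligible genes but varied more among rats of a group. The median of their mean levels was 20.2 CPM in SAT and 19.3 CPM in VAT, against 22.5 and 19.7 CPM over all eligible genes. Their median standard deviation within groups on the log2 scale was 0.811 in SAT and 0.642 in VAT, against 0.296 and 0.211. In 20 of the 35 members this spread was above the 90th percentile of eligible genes in both depots, and in 1, member 32, it was below the 50th percentile in both. Libraries at 0 counts were found in both depots for 12 members, and for 3.06% of the eligible genes. These are measures that the rule uses in part, since a correlation this high needs a spread that exceeds the counting error.

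By the shape of their values the members fell into 4 classes. A gene was said to have 2 levels in a depot where its sorted values on the log2 scale had a gap of at least 1, with at least 2 libraries on each side. In 6 members (2, 4, 5, 6, 7 and 9) both depots had such a gap and the same rats lay below it in both. In 3 members (10, 13 and 30) both depots had a gap but 1 or more rats changed sides between them. In 5 members (3, 14, 16, 21 and 23) only 1 depot had a gap, and in the other 21 neither had.

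Among all 13387 eligible genes, 570 (4.26%) had 2 levels in both depots and 15 (0.112%) had the same rats below in both. Of these 15 genes, 8 (0.0598% of the eligible genes) parted all early from all late rats, and none of those 8 was a member. Their r lay between -0.235 and 0.624. The other 7 genes (0.0523% of the eligible genes) held rats of both levels within a group, and 6 of the 7 were members. The remaining gene had an r of 0.600. Subtracting the group means removes a split of early from late rats, and a split shared by the depots within groups raises r. Both counts of members therefore follow in part from the rule.

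**Figure D2:**
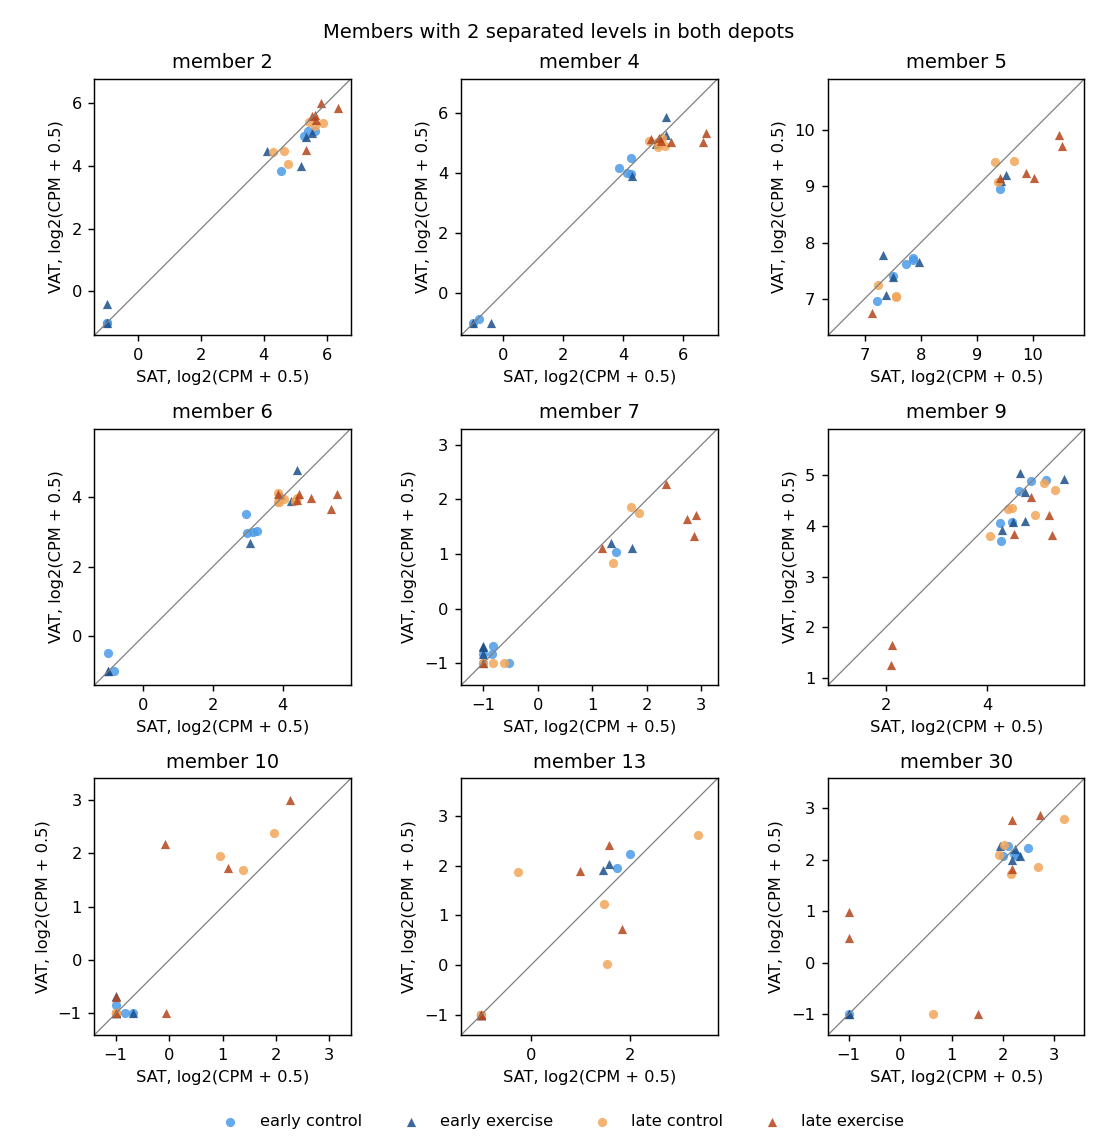
Levels of the 9 members with 2 levels in both depots, as log2(CPM + 0.5) in SAT (x axis) and VAT (y axis), with 1 point per rat, coloured by group, and the line of equal levels in grey. Members 2, 4, 5, 6, 7 and 9 each form 2 separate clouds on or near the line, while for members 10, 13 and 30 some rats leave the clouds.

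Member 2, ENSRNOG00000055020, was read as on or off in every rat. In SAT its lowest, median and highest levels were 0, 30.7 and 49.3 CPM in early control rats and 0, 26.4 and 45.5 CPM in early exercise rats. In SAT of late rats they were 19.1, 34.6 and 58.8 CPM in the control group and 40.3, 49.4 and 82.3 CPM in the exercise group. The groups overlapped, but the 4 lowest SAT libraries, 2 in each early group, all stood at 0 counts, and every other SAT library was at 16.6 CPM or more.

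In VAT the same 4 rats were low for member 2, at no more than 0.260 CPM, and 3 of the 4 libraries held 0 counts. The other 20 rats lay between 13.9 and 64.2 CPM in VAT. No rat was in between in either depot, and the gap spanned 5.10 on the log2 scale in SAT and 4.24 in VAT. All 12 late rats were on the high side in both depots. Within the late rats alone, where no rat was off, r between depots was still 0.782, and the gene's r over 24 rats stayed at 0.981 or more whichever rat was left out.

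Member 4, ENSRNOG00000029262, and member 6 were off in the same 4 rats as each other. These rats stood at no more than 0.256 CPM for member 4 and 0.224 CPM for member 6 in either depot. For member 4 the lowest, median and highest SAT levels were 0, 15.3 and 18.8 CPM in early control, 0, 26.4 and 42.9 CPM in early exercise, 28.3, 35.5 and 41.9 CPM in late control and 30.1, 42.9 and 106.8 CPM in late exercise rats. In VAT they were 0, 15.4 and 22.3 CPM in early control, 0, 22.7 and 58.5 CPM in early exercise, 28.7, 32.4 and 35.4 CPM in late control and 32.1, 33.8 and 39.8 CPM in late exercise rats. Again 2 rats of each early group were off and all 12 late rats were on.

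The on level of member 4 was itself uneven. The early control rats that were on reached at most 18.8 CPM in SAT and 22.3 CPM in VAT, below every late rat in both depots, while the early exercise rats that were on overlapped with the late rats. Among late rats, which were all on, the depots no longer varied together, with r of 0.170 for member 4 and -0.349 for member 6, against 0.995 and 0.990 among early rats. The highest SAT levels of both members, 106.8 and 46.5 CPM, were in the late exercise group, which holds both SAT libraries that stand apart.

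Members 4 and 6 moved as a fixed pair. The correlation of their deviations, averaged over depots, was 0.997 across the 24 rats. In the 20 rats where both were over 1 CPM, member 4 was 1.65 to 2.86 times member 6 in SAT (median 2.12) and 1.92 to 2.68 times in VAT (median 2.17). These are ratios of counts, not of levels per length. Whether the IDs share reads through similar sequence was not tested. Of the 4 rats off for member 2 and the 4 off for members 4 and 6, 2 were the same.

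Members 5 and 7 also split the rats in the same way as each other, but into a larger low side of 13 rats and a high side of 11. Member 5 was not off on its low side. In SAT it stood between 140 and 249 CPM in the 13 low rats and between 638 and 1465 CPM in the 11 high rats, and in VAT between 107 and 220 CPM and between 499 and 965 CPM. The step from the top of the low side to the bottom of the high side was thus 2.56-fold in SAT and 2.27-fold in VAT.

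By group, the lowest, median and highest SAT levels of member 5 were 149, 221 and 681 CPM in early control, 160, 215 and 735 CPM in early exercise, 151, 413 and 815 CPM in late control and 140, 987 and 1465 CPM in late exercise rats. In VAT they were 124, 201 and 499 CPM, 134, 210 and 587 CPM, 131, 347 and 701 CPM, and 107, 589 and 965 CPM in the same order. Every group held rats of both levels. The low side took 5 early control, 4 early exercise and 4 late rats.

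Member 7 was lower by orders of magnitude and did turn off. Its low rats were at no more than 0.192 CPM in SAT and 0.123 CPM in VAT, and its high rats at 1.78 to 6.95 CPM in SAT and 1.30 to 4.40 CPM in VAT. The 13 low rats were the same 13 as for member 5, and the deviations of the pair correlated at 0.976. In the 11 high rats member 5 held 135 to 381 times the counts of member 7 in SAT and 217 to 419 times in VAT. All 4 rats off for member 2, and all 4 off for members 4 and 6, were among these 13.

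Member 23 followed the same pair less sharply. Its deviations correlated at 0.834 with those of member 5 and at 0.886 with those of member 7. It had 2 levels in SAT, where 15 libraries were at no more than 0.831 CPM and 9 at 2.62 CPM or more, and no gap of the required size in VAT. Its highest level was 5.86 CPM in SAT and 4.52 CPM in VAT.

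Member 9 was the only one of the sharp 6 that was low in late rats alone. In SAT its lowest, median and highest levels were 18.6, 23.2 and 35.1 CPM in early control, 19.0, 25.5 and 45.4 CPM in early exercise, 16.1, 26.2 and 40.0 CPM in late control and 3.77, 25.6 and 38.4 CPM in late exercise rats. In VAT they were 12.6, 20.9 and 29.5 CPM, 14.7, 20.8 and 32.6 CPM, 13.5, 19.8 and 28.1 CPM, and 1.90, 13.8 and 23.4 CPM in the same order. In each depot 2 late exercise rats, the same ones, lay below all other 22 and yet were far from 0, at 3.87 CPM or less in SAT and 2.65 CPM or less in VAT. They supplied 54.9% of the covariance between depots.

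The 3 members whose rats changed sides were weakly expressed, at 9.72 CPM or less in every library. Member 10 was on in late rats only. No early library was above 0.130 CPM, and in VAT its lowest, median and highest levels were 0, 1.36 and 4.69 CPM in late control and 0, 1.46 and 7.49 CPM in late exercise rats. In SAT they were 0, 0.718 and 3.41 CPM and 0, 0.450 and 4.32 CPM. Each late group thus held rats with and without it.

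Member 13 was at 0 counts in 13 libraries of each depot and reached 9.72 CPM in SAT and 5.63 CPM in VAT. It was off in 8 of the 12 early rats in both depots. Member 30 was at 0 counts in 5 libraries of each depot and otherwise reached 8.57 CPM in SAT and 6.79 CPM in VAT, and 20 of 24 rats were on the same side in both depots. At these levels a library holds few counts, so the side of a rat near the gap is less certain than for members 2, 4 and 6.

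Members 1 and 3 are correlated through 1 early exercise rat. Member 1, ENSRNOG00000019050, stood at 12.4 CPM in SAT and 22.9 CPM in VAT of that rat and at no more than 0.0658 CPM, which is 1 count, in any other library of either depot. Member 3, ENSRNOG00000030704, stood there at 31.7 and 36.6 CPM, at 0 in every other SAT library and at 0.795 CPM in 1 other VAT library. That rat is early exercise replicate 3, whose VAT library stands apart, while its SAT library does not. It supplied 83.3% of the covariance between depots for each of the 2 members, and without it r of member 1 was 0.0931 and that of member 3 was not defined. Their high r therefore describes a single animal.

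The other 33 members did not rest on a single rat to that degree. No rat supplied more than 42.5% of the covariance of any of them, and the lowest r after leaving out a rat was between 0.685 (member 35) and 0.981, with a median of 0.833. In 21 of the 35 members r stayed over 0.8 whichever rat was left out. By ranks, the Spearman correlation was over 0.8 in 21 members and over 0.5 in all 35. Members were chosen by a Pearson r over 0.8, so a lower count by another measure was favoured by the choice.

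Members 14, 16 and 21 had a gap in 1 depot. Member 14 was high in most rats, with SAT medians by group of 72.2 to 90.2 CPM and VAT medians of 75.1 to 88.9 CPM, and single rats fell to 4.35 CPM in SAT and 6.02 CPM in VAT. In VAT 6 rats stood at 19.4 CPM or less and the other 18 at 46.6 CPM or more. For member 16, 5 VAT libraries held 0 counts while the highest reached 43.9 CPM. Member 21 stood at no more than 0.131 CPM in 12 SAT libraries and at 2.02 to 6.30 CPM in the other 12.

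The remaining 20 members were graded, with no gap of 1 in either depot, and 19 of them had counts in every library. From the lowest to the highest library they spanned 1.91-fold to 10.8-fold in SAT (median 3.21) and 1.55-fold to 9.54-fold in VAT (median 3.54). The exception was member 15, which had 0 counts in 5 SAT libraries, all from early rats, and whose highest level was 3.49 CPM. The same 5 rats were its lowest in VAT, at no more than 0.0638 CPM. At the narrow end, member 32 stood at 23.5 to 46.5 CPM in SAT and at 20.8 to 32.3 CPM in VAT.

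**Figure D3:**
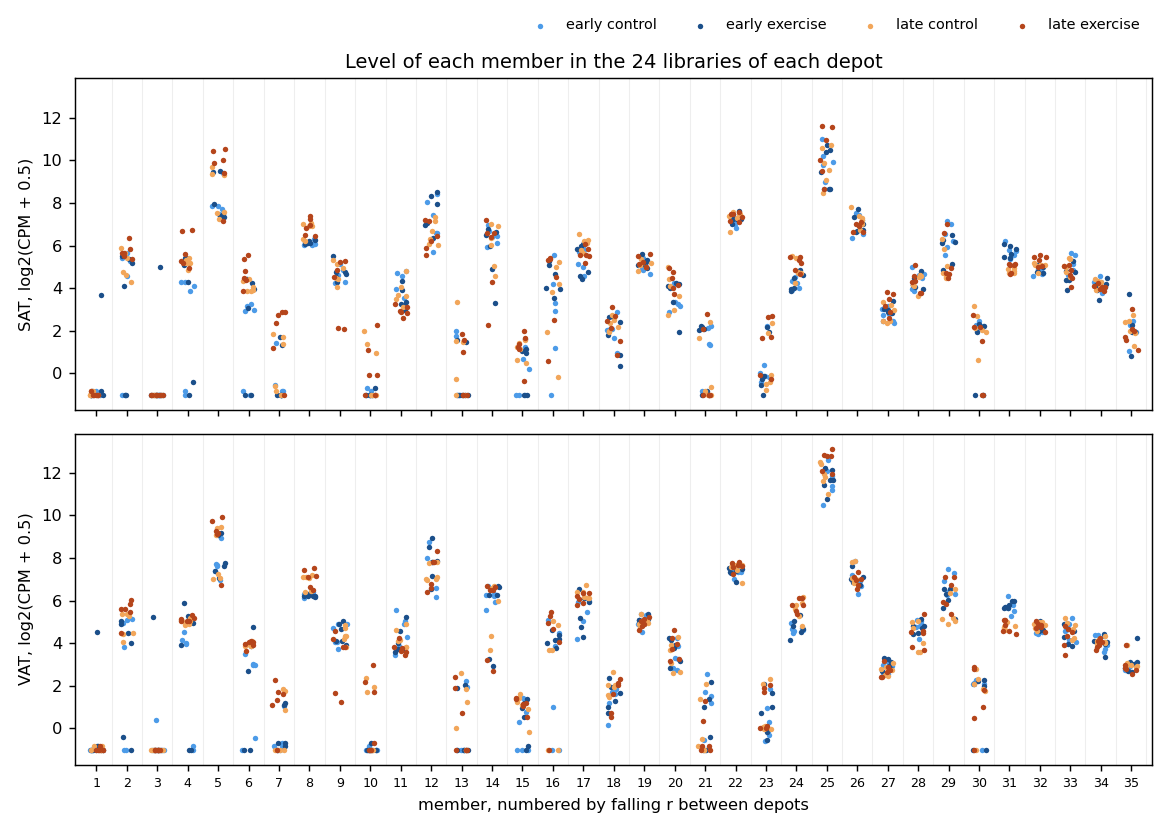
Level of each of the 35 members in the 24 SAT libraries (upper panel) and the 24 VAT libraries (lower panel), as log2(CPM + 0.5), with 1 point per library coloured by group. A value of -1 is 0 counts, and the split of members 2, 4, 5, 6, 7 and 9 into 2 levels is seen in both panels.

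Member 25 was the most abundant, with mean levels of 1171 CPM in SAT and 4335 CPM in VAT. Its lowest, median and highest SAT levels were 398, 919 and 2073 CPM in early control, 397, 1031 and 1681 CPM in early exercise, 349, 838 and 1708 CPM in late control and 410, 1529 and 3115 CPM in late exercise rats. In VAT they were 1434, 3175 and 6176 CPM, 1750, 3246 and 4864 CPM, 2057, 3742 and 5752 CPM, and 3922, 7151 and 9050 CPM in the same order. All groups overlapped within a depot, and the highest levels in both depots were in late exercise rats.

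Member 25 also had by far the most genes that varied like it. Over the 24 rats, with deviations averaged over depots, 121 eligible genes correlated with it at over 0.8 and 74 at under -0.8. The most alike correlated at 0.975 and had an r between depots of its own of 0.702. No other member had more than 9 such genes with a positive sign (member 33) or 2 with a negative sign. These correlations share libraries and depth and are given as description. In late exercise SAT, replicates 4 and 6, whose libraries stand apart, held the lowest levels of member 25 (733 and 410 CPM). Counts of such genes without those rats are not given here.

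Members were for the most part not alike among themselves. Over the 595 pairs of members the median size of the correlation was 0.195, with 7 pairs over 0.8 and 2 below -0.7. Members 1 and 3 are 1 of the 7 pairs, at 0.992, but their correlation rests on 1 rat. It was -0.065 without 1 rat and -0.104 without the 4 rats with a library that stands apart. Besides the pairs already named, members 11 and 26 correlated at 0.859, and members 14 and 33 at 0.823. Members 14, 18 and 33 correlated at over 0.7 in each pairing, and member 29 with member 14 at 0.717. In the opposite direction, member 12 correlated with member 26 at -0.77 and member 8 with member 10 at -0.73. For 19 members no other member reached 0.7 in size.

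**Figure D4:**
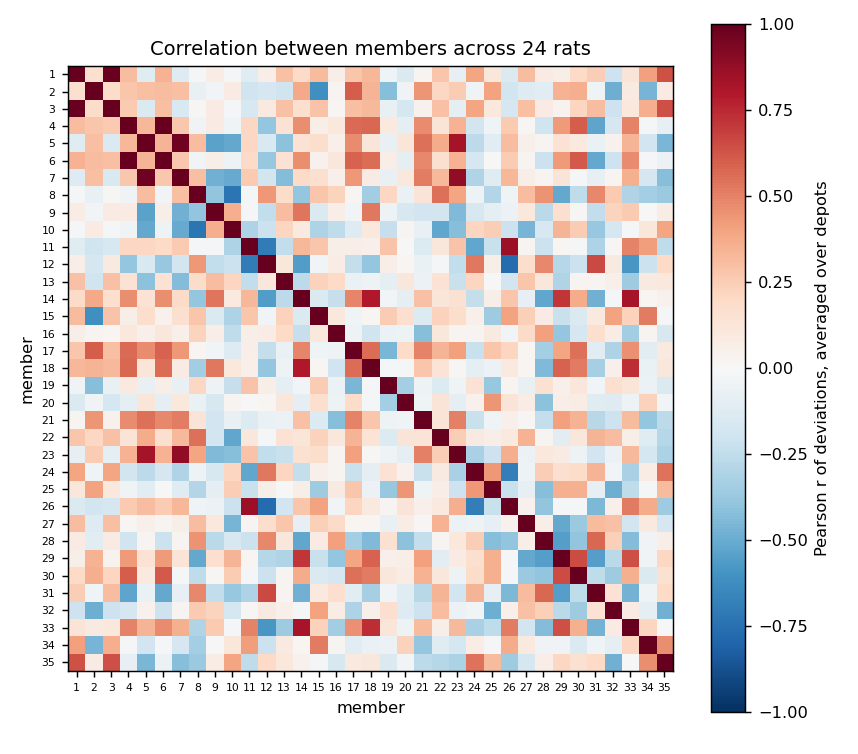
Pearson r between members across 24 rats, from deviations averaged over the 2 depots, with members numbered by falling r between depots (colour scale from -1 in blue to 1 in red). Dark cells off the diagonal mark pairs such as 4 and 6, 5 and 7, and 11 and 26, and most other cells are pale, with a median size of 0.195.

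In the median member the likeness between depots was present at either phase and with or without exercise. Over the 12 early rats the members' median r was 0.881 and over the 12 late rats 0.817, against 0.169 and 0.181 for all eligible genes. Over sedentary rats it was 0.905 and over exercised rats 0.865, against 0.234 and 0.126. These rats are part of those that chose the members, so a high r in each part was favoured by the choice. It was over 0.8 in 28 members among early rats and in 18 among late rats. Some members were alike at 1 phase only, and member 10, which was at or near 0 in all early rats, had r of -0.215 among them and 0.90 among late rats.

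Member 8 showed a related pattern, since its spread among rats was present at the late phase. In SAT its lowest, median and highest levels were 63.8, 66.8 and 77.6 CPM in early control, 67.8, 69.9 and 75.4 CPM in early exercise, 72.8, 120.3 and 132.5 CPM in late control and 87.6, 118.9 and 169 CPM in late exercise rats. In VAT they were 69.1, 76.8 and 83.3 CPM, 70.9, 74.0 and 78.9 CPM, 84.4, 133.7 and 147 CPM, and 89.7, 140.2 and 187 CPM in the same order. All 12 early rats and 4 late rats lay below the widest gap and the other 8 late rats above it, the same rats in both depots. That gap was 0.337 in SAT and 0.386 in VAT on the log2 scale, under the size set for 2 levels.

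The rule removed the group means before r was taken, so r did not use the size or direction of differences between groups. The minimum of 2 CPM in each depot was applied to the levels themselves. Members 1 and 3 met it in 1 early exercise rat only, member 10 in late rats only, and member 7 in late rats only in VAT. For these members the direction of a group difference was not free of the choice. The spread within groups, which sets the standard errors, was used, so counts of members called are given beside those of all genes as description. Tests used edgeR's quasi-likelihood test across all genes with Benjamini-Hochberg adjusted p under 0.05. Members 1 and 3 were filtered out for low counts in all fits and member 10 in SAT, which left 32 members in SAT, 33 in VAT and 33 between depots.

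Late rats were compared with early rats in sedentary and in exercised animals. In SAT of sedentary rats 2 of 32 tested members were called, 1 higher and 1 lower late, where 3.22% of all tested genes were called, 1.53% higher and 1.69% lower. In SAT of exercised rats 4 were called, 3 higher and 1 lower, against 17.3% of all genes, 9.83% higher and 7.51% lower. In VAT of sedentary rats 5 of 33 were called, 3 higher and 2 lower, against 11.3%, 5.39% higher and 5.96% lower. In VAT of exercised rats 6 were called, 5 higher and 1 lower, against 21.0%, 10.3% higher and 10.8% lower. These were 6.25%, 12.5%, 15.2% and 18.2% of the tested members, near the share of all genes in each comparison. The median log2 change of the members, late minus early, was 0.22 and 0.14 in SAT and 0.22 and 0.27 in VAT, against -0.01, 0.03, -0.01 and -0.01 over all tested genes. Members 8 and 31 were called in all 4 comparisons.

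Member 31 fell at the late phase in both depots. In SAT its lowest, median and highest levels were 40.9, 50.4 and 74.8 CPM in early control, 41.9, 52.4 and 67.9 CPM in early exercise, 25.6, 26.9 and 30.04 CPM in late control and 24.7, 33.2 and 35.1 CPM in late exercise rats. In VAT they were 38.3, 50.5 and 74.3 CPM, 49.6, 53.5 and 62.6 CPM, 23.9, 27.1 and 31.8 CPM, and 21.0, 26.3 and 33.3 CPM in the same order. In either depot every late library lay below every early one. The log2 change was -0.96 ± 0.14 (SE) in SAT of sedentary rats (adjusted p = 1.89e-04, edgeR) and -0.94 ± 0.13 in VAT (adjusted p = 2.19e-05, edgeR), and -0.81 ± 0.14 and -0.94 ± 0.13 in exercised rats. These calls held under all alternatives tried.

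Member 8 rose at the late phase. Its log2 change was 0.65 ± 0.17 (SE) in SAT of sedentary rats (adjusted p = 0.0357, edgeR) and 0.65 ± 0.15 in VAT (adjusted p = 0.00609, edgeR). In exercised rats it was 0.77 ± 0.17 in SAT and 0.97 ± 0.15 in VAT (adjusted p = 7.46e-05 in VAT, edgeR), and there every late library lay above every early one. The SAT call in sedentary rats was lost when any of 10 of the 12 rats was left out, with log2 changes of 0.56 to 0.68.

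Member 24 rose at the late phase in 3 of the 4 comparisons. Its SAT medians were 18.7 and 18.8 CPM in early control and early exercise and 26.1 and 37.7 CPM in late control and late exercise rats. The VAT medians were 24.5, 26.5, 51.6 and 55.0 CPM in the same order. The log2 change was 0.99 ± 0.21 (SE) in VAT of sedentary rats (adjusted p = 0.0023, edgeR), 1.14 ± 0.21 in VAT of exercised rats (adjusted p = 3.92e-04, edgeR) and 0.86 ± 0.23 in SAT of exercised rats (adjusted p = 0.0154, edgeR). The last of these had an adjusted p of 0.0699 in a fit of the 2 groups alone.

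**Figure D5:**
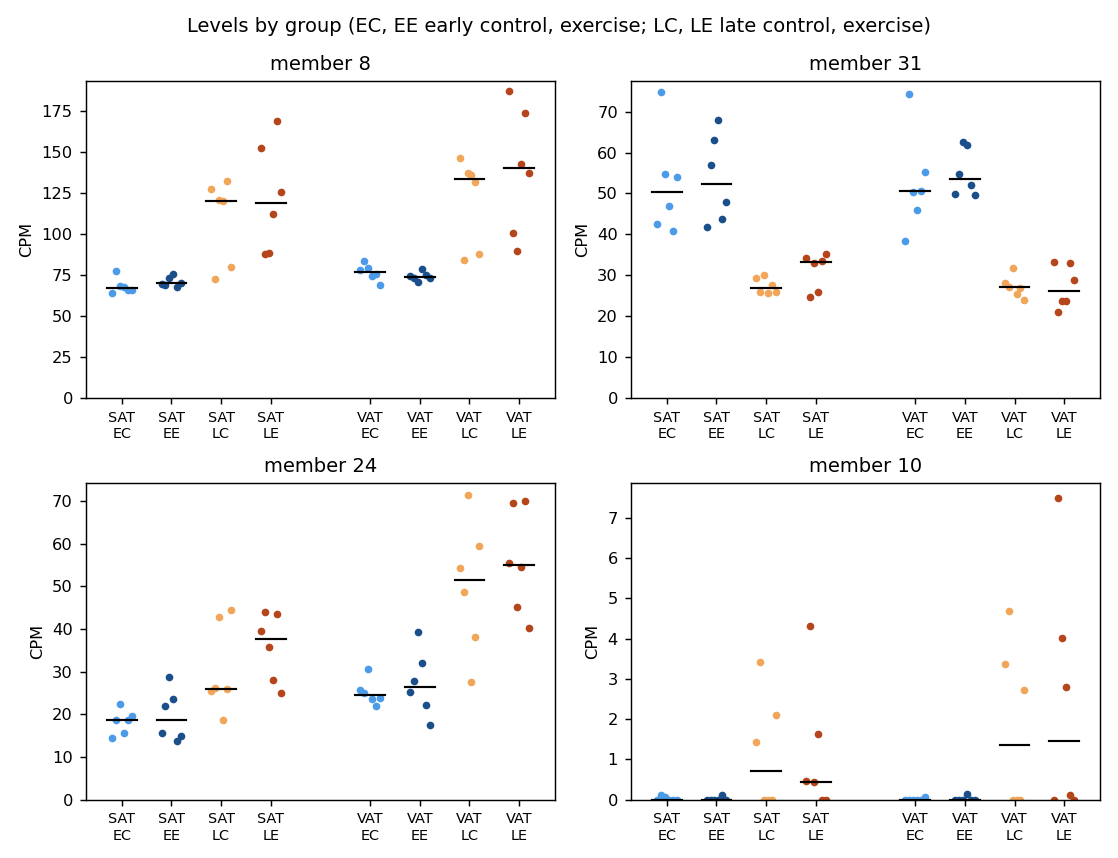
CPM of members 8, 31, 24 and 10 in each library of the 8 groups (6 libraries per group), with the group median as a black line and the axis starting at 0. Member 31 is lower in all late libraries, member 8 is narrow in early and wide in late groups, and member 10 is near 0 in all early libraries.

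Member 10 rose in VAT at the late phase in sedentary rats (adjusted p = 0.0158, edgeR) and in exercised rats (adjusted p = 0.00644, edgeR). It met the minimum of 2 CPM in late libraries alone, so a higher late level was favoured by the choice of members. These p-values are therefore given as description. All early libraries were at or under the level that 3 counts allow, so no fold is given, and in each late group 3 of 6 VAT libraries were also under 1 CPM. Both calls were lost with limma voom (adjusted p = 0.293 and 0.203, limma). The call in sedentary rats was also lost without early control replicate 6 (adjusted p = 0.0524, edgeR).

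Of the other members called for phase, 32 rose in SAT of exercised rats, by 0.40 ± 0.10 on the log2 scale (adjusted p = 0.0108, edgeR). The call was lost in a fit of the 2 groups alone (adjusted p = 0.0706, edgeR). In VAT of exercised rats member 25 rose by 1.00 ± 0.35 (adjusted p = 0.0474, edgeR) and member 22 by 0.37 ± 0.13 (adjusted p = 0.0386, edgeR). Member 29 fell in VAT of sedentary rats, with a log2 change of -1.18 ± 0.37 (adjusted p = 0.0385, edgeR). The calls of members 25, 22 and 29 were lost when any of 8, 9 and 7 of the 12 rats was left out. Without the VAT libraries that stand apart members 25 and 22 were not called (adjusted p = 0.0726 and 0.0649, edgeR).

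None of the 6 members with the sharpest 2 levels passed a test for phase. Member 4 had fitted log2 changes, late minus early, of 1.62 ± 0.92 (SE) in SAT and 1.46 ± 0.81 in VAT of sedentary rats (adjusted p = 0.427 and 0.279, edgeR). For member 2 they were 0.50 ± 0.97 and 0.64 ± 0.82 (adjusted p = 0.87 and 0.701, edgeR). Rats of a group stood at 2 levels, and these p-values do not show that the share of rats on each level was equal at the 2 phases.

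Exercise was tested at each phase. At the early phase 0 of 32 members in SAT and 0 of 33 in VAT were called, and 0% of all tested genes in either depot (edgeR). At an unadjusted p under 0.05 there were 131 genes in SAT and 345 in VAT, with 1 member in each. At the late phase in VAT 0 members and 0% of all genes were called (edgeR), with 1557 genes and 2 members at an unadjusted p under 0.05. For the members, DESeq2 and limma voom also called 0 in these 3 comparisons.

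At the late phase in SAT 2 members were called, 1 higher and 1 lower in exercised rats, where 11.5% of all tested genes were called, 7.83% higher and 3.67% lower. Member 11 fell from 14.5 ± 6.91 CPM in late control to 7.28 ± 1.25 CPM in late exercise rats (SD, n = 6), with a log2 change of -0.99 ± 0.32 (SE, adjusted p = 0.0462, edgeR). Member 32 rose from 32.5 ± 3.47 to 39.6 ± 6.06 CPM (SD, n = 6), with a log2 change of 0.31 ± 0.10 (SE, adjusted p = 0.0488, edgeR). In both members the groups overlapped. The late exercise group holds the SAT libraries that stand apart, and without them neither was called (log2 changes of -0.98 and 0.30, adjusted p = 0.141 and 0.137, edgeR). Over all 19 alternatives the call of member 11 was lost in 15, 10 of them by leaving out 1 of the 12 rats, and that of member 32 in 14, 9 of them in this way.

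The depots were compared with both phases pooled. This fit had no term for the rat, so the 2 libraries of a rat were treated as independent. Members were chosen for varying alike between those libraries, so this fit overstates the error of their difference between depots. Their share called is thus not comparable with that of all genes. With a block on the rat 15 members were called in each comparison, against 44.0% and 49.8% of all tested genes. In sedentary rats 6 of 33 tested members were called, all higher in VAT, where 43.3% of all tested genes were called, 21.6% higher and 21.7% lower. In exercised rats 10 were called, 9 higher in VAT and 1 lower, against 50.3%, 23.0% higher and 27.4% lower. The median log2 difference of the members, VAT minus SAT, was 0.09 and 0.02.

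Member 25 had the largest difference between depots among the members called, at a log2 of 2.10 ± 0.34 (SE) in sedentary rats (adjusted p = 3.54e-06, edgeR) and 2.00 ± 0.34 in exercised rats (adjusted p = 6.55e-06, edgeR). Member 35 was higher in VAT by 1.17 ± 0.26 and 1.15 ± 0.26, and member 24 by 0.75 ± 0.16 and 0.70 ± 0.16. For members 25, 35 and 24 the calls held under all alternatives tried. Members 8, 11 and 22 were also higher in VAT in both, by 0.29 to 0.96. In exercised rats alone members 12, 17 and 28 were called higher and member 32 lower in VAT, and whether these differences themselves differed with exercise was not tested. The calls of members 12, 17, 28 and 32 were lost when any of 7, 5, 4 and 7 of the 12 rats was left out. The calls of member 11 in sedentary and of member 8 in exercised rats were each lost without any of 7 rats, that of member 8 in sedentary rats without any of 3, and that of member 22 in sedentary rats without 1 rat.

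The 9 members with 2 levels in both depots were not all at the same level in the depots. Mean CPM in VAT over mean CPM in SAT was 0.809 for member 2, 0.782 for member 4, 0.761 for member 5, 0.758 for member 6, 0.629 for member 7 and 0.759 for member 9. It was 1.80 for member 10, 1.06 for member 13 and 0.936 for member 30. None of these 9 was called between depots in the fit without a block on the rat (edgeR). That fit treated the 2 libraries of a rat as independent, so it does not show that their levels were equal in the depots. Over all members, 10 were called in either comparison in that fit and 18 with the block.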

How the data were processed

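RNA of both depots of 24 rats was sequenced as polyA-selected libraries, per the labels' protocols. The deposited table holds estimated counts per Ensembl gene ID for 48 libraries. The submitters' processing notes name Salmon 1.4.0 and the build rn6, and the annotation release is not given in the sources used here. Of 47357 genes in the RefSeq table at hand 0 carried an Ensembl ID, so 0 IDs matched a symbol, and the gene lists and cell type markers drawn up for this work were not analysed here.

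CPM used column totals, with a pseudocount of 0.5 for log2. Group tests used the counts, rounded to whole numbers, in edgeR 4.0.16 (R 4.3.3) with TMM normalisation, filterByExpr and quasi-likelihood fits per depot (4 groups) or over all 8 groups, at a Benjamini-Hochberg adjusted p under 0.05. Standard errors of log2 changes were derived from the same fit. Each is the size of the log2 change divided by the square root of its F statistic. Selection and tests were also run on simulated counts, whose outcome is not given here and is not used as support. The simulation of the selection held graded rat effects and no on-off genes. A library was said to stand apart where its median rank correlation was lower than the depot's median by over 5 median absolute deviations. Alternatives used other scalings and filters, DESeq2 1.42.0, limma 3.58.1 voom with quality weights, 2-group fits, a replicate block, and left-out rats.

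Depots were paired by the replicate letter of the library names. The labels give 6 rats per group for both depots but do not tie a letter to an animal, so the pairing is an assumption of the rule. Over 13352 eligible genes that are not members, the deviations of paired libraries correlated at -0.115 to 0.225 (median 0.131), at over 0.1 in 15 of 24 pairs, and 14 of 24 SAT libraries were most like their own VAT library within the group. Within a depot, equal numbers in different groups name different rats.

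The members and lists were chosen with earlier results of these data known. The rule for named genes asked for members with 2 levels, members called in a test and the 10 with the highest r, up to 30 with symbols. Without symbols, the 4 members of highest r are given by ID and others by rank, a change made after the table was seen.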

Additional observations from a re-analysis of the deposited data

Results flagged for a closer look

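For the 4 members given by ID, each of the 8 groups of 6 libraries was searched for a library far from the other 5, where chance alone marks about 1 in 20 groups of well-spread values. That rate does not hold here, because a single count against 5 zeros is always marked, and because members 1 and 3 were chosen through early exercise replicate 3, so its marks were fixed by the choice of members. In 26 groups with any spread, 9 libraries were marked. For ENSRNOG00000019050 early exercise replicate 3 stood at 12.4 CPM in SAT and 22.9 CPM in VAT, against at most 0.0639 and 0.0645 CPM in the other early exercise libraries. For ENSRNOG00000030704 the same rat stood at 31.7 CPM in SAT and 36.6 CPM in VAT, against 0 in the other 5. Early control replicate 2 held 0.795 CPM of ENSRNOG00000030704 in VAT, against 0.

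The other 4 marks were slight. For ENSRNOG00000055020 late exercise replicate 4 stood at 82.3 CPM in SAT, with the next library at 55.9 CPM, and this SAT library is among those that stand apart. ENSRNOG00000019050 had 1 count where the other 5 libraries had 0 in SAT early control replicate 6 (0.0652 CPM), SAT late exercise replicate 6 (0.0638 CPM) and VAT late exercise replicate 6 (0.0647 CPM).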

How the results depend on the processing

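The 35 genes became 38 with a pseudocount of 1 (35 shared), 41 with TMM library sizes (27 shared), 29 by Spearman correlation (21 shared) and 35 or 31 with a minimum of 1 or 5 CPM. They became 116 at r over 0.7, 9 at r over 0.9, 115 without the 4 rats with a library that stands apart, and 33 to 51 without 1 rat. The 51 were without late exercise replicate 4, and 30 to 35 members were among the genes whichever rat was left out.

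For phase in SAT of sedentary rats, 4 members were called with limma voom, with a fit of 2 groups and without the libraries that stand apart, and 1 to 2 without 1 rat (1 without any rat of the 12 but late control replicates 2 and 6). In SAT of exercised rats the 2-group fit called 2, and leaving out a rat gave 4 to 6. In VAT of sedentary rats limma voom called 8, and leaving out a rat gave 4 to 6, as it did in exercised rats. For late exercise in SAT, 0 members were called with no filter, limma voom, 2 groups, the replicate block and without the libraries that stand apart, and 0 to 2 without 1 rat, with 2 only without late exercise replicate 5. The other 3 exercise comparisons gave 0 under all alternatives. Between depots the replicate block gave 15 of 33 tested members in sedentary rats and 15 in exercised rats. It called 44.0% and 49.8% of all tested genes there, and shares of all genes under the other alternatives are not given here. Leaving out a rat gave 3 to 6 members between depots of sedentary rats, with 3 without late control replicate 1. In exercised rats limma voom gave 4, removing the libraries that stand apart 5, and leaving out a rat 5 to 11, with 5 without early exercise replicate 1 or late exercise replicate 4 and 6 without early exercise replicate 5 or 6.

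Of 35 single calls 16 held under all alternatives and none changed direction. In 647 refits of these calls 131 lost the call. A block on the rat between depots removes the shared variation for which the members were chosen, so these 15 calls draw on the rule's own values. Within a depot, equal replicate numbers in different groups name different rats. Their deviations correlated at over 0.1 in at most 4 of 6 pairs in 8 comparisons, against 15 of 24 pairs between depots. That measure therefore does not separate paired from unpaired libraries. The block on the replicate number within a depot changed no count of calls other than those given by over 1.5 times. The cause of these shifts was not tested. Members under 5 CPM rest on few counts, which limits how surely their low level can be called off.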
